A study of Mus musculus with 6 samples.

Results

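The 10 genes studied here belong to the cardiac Z-disc, the thin filament and the response to mechanical load, and their levels were compared in cultured mouse heart cells: Ankrd1, Csrp3, Ldb3, Tcap, Myoz2, Actn2, Nebl, Xirp1, Xirp2 and Lmod2. They were found by symbol through the GENCODE M21 annotation, which placed 10 of the 54532 Ensembl gene IDs of the deposited table under these names, and all 10 were among the 13794 genes that averaged 0.5 FPKM or more (fragments per kilobase of exon, scaled to library size) and so entered the test. RNA-seq had been performed on primary cardiomyocytes from neonatal mouse hearts of an engineered Rit1 strain in which Cre recombinase turns on the M90I allele of Rit1, a RAS-related GTPase gene. The AdGFP group, labelled Rit1 +/+, received on day 3 after isolation an adenovirus encoding GFP, and the AdCre group, labelled Rit1 M90I/+, received one encoding GFP-Cre, with 3 samples in each. Both groups carry the engineered locus and an adenovirus, and no wild-type cells with Cre were analysed here, so the M90I allele and Cre itself cannot be told apart. One value per gene cannot show which Rit1 allele was read, so the genotype labels could not be checked here. The samples carry replicate numbers 1 to 3 in both groups, and nothing in the labels says which cultures or litters a number stands for.

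The Z-disc is the boundary of the sarcomere, the contractile unit of striated muscle: α-actinin cross-links the actin thin filaments of neighbouring sarcomeres there, and titin is anchored to the same lattice. Proteins bound to this lattice hold the myofibril together under load, and several of them move to the nucleus or bind signalling enzymes, so that the Z-disc is regarded as a place where the cardiomyocyte senses stretch. Variants in many of these genes are known from inherited cardiomyopathies, and Ankrd1, Csrp3 and the Xin-repeat genes are known to change in hearts under pressure or strain.

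All 10 genes had a lower mean in AdCre than in AdGFP, at 33.9% of the AdGFP mean for Myoz2 to 70.2% for Nebl, and each was lower in AdCre within all 3 replicate numbers. Being lower within every replicate number held for 24.5% of all tested genes. The groups did not overlap for 5 of the 10 (Tcap, Myoz2, Actn2, Nebl and Lmod2), against 8.02% of tested genes that lay lower without overlap. The median difference over the 10 was -0.88 on the log2(FPKM + 0.1) scale, and that over all tested genes was -0.00218. In the test of the groups as labelled (limma, Benjamini-Hochberg adjustment over the 13794 genes), 0 of the 10 passed an adjusted p of 0.05, where 0.00725% of tested genes did in either direction. At an unadjusted p under 0.05, 7 of the 10 were lower (all but Csrp3, Xirp1 and Xirp2), against 5.45% of tested genes, and limma with precision weights on the recovered reads (voom) also called 0 of them at an adjusted p of 0.05. This count of 7 became 3 without AdGFP 2 (2.68% of tested genes), 4 without AdCre 1 (3.44%) and 4 after rescaling to TPM, equal totals per sample (3.1%). It became 5 without AdGFP 1 (6.18%) or AdCre 3 (3.41%), 9 without AdGFP 3 (6%), 8 without AdCre 2 (6.83%) and 8 with voom (4.02%). When the replicate number was fitted as a block, 8 of the 10 passed in the lower direction, all but Csrp3 and Xirp2, against 3.51% of tested genes, and 0 of them passed in the higher direction, against 2.64%. Without the samples numbered 1 the blocked fit called the same 8 genes, against 3.25% of tested genes called lower. Without the samples numbered 2 it called 3 of 10 (Myoz2, Actn2 and Lmod2), against 0.718% of tested genes called lower. Without the samples numbered 3, without the intensity trend of the variance or without the filter on low genes it called 0 of 10. In each of those 3 fits 9 of the 10 were lower at an unadjusted p under 0.05, against 10.1%, 12.2% and 7.25% of tested genes. In such bulk RNA, fewer cardiomyocytes in a culture and less RNA of these genes per cardiomyocyte cannot be told apart.

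**Figure D1:**
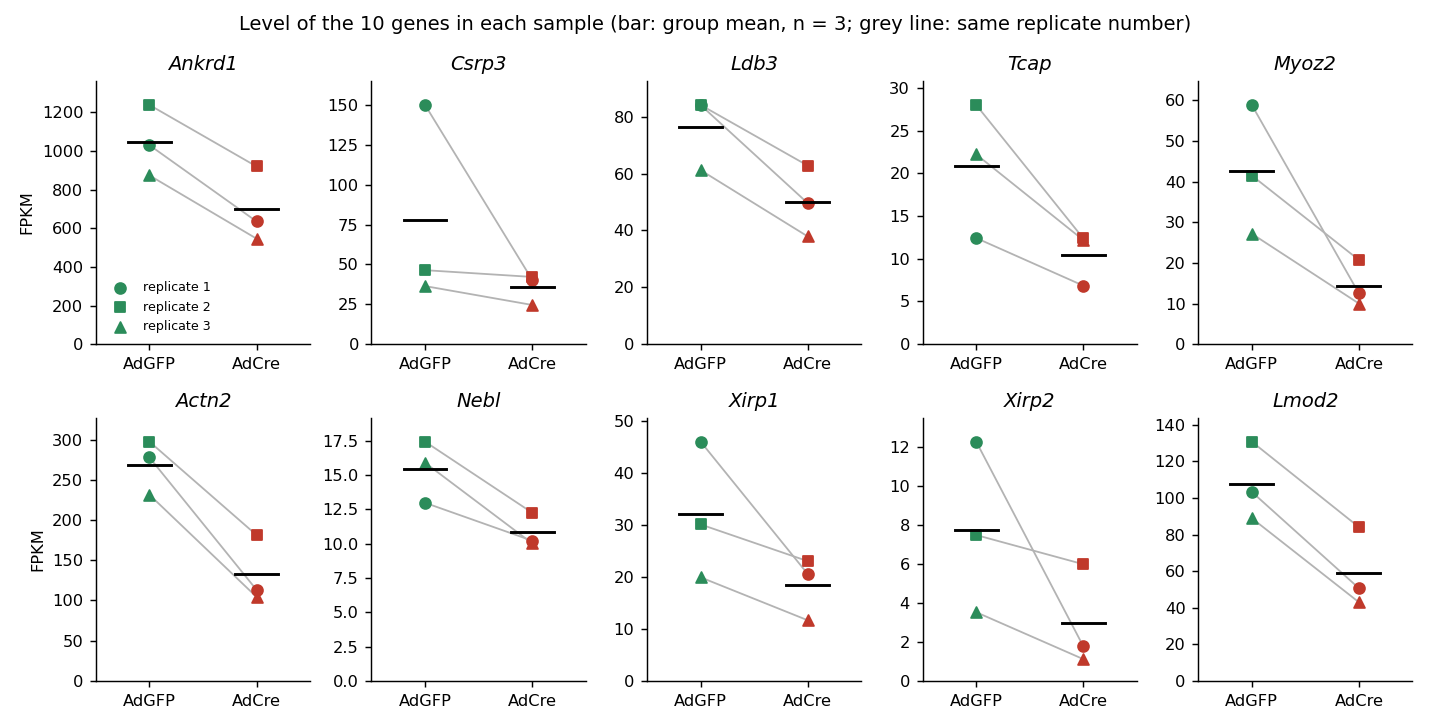
FPKM of each of the 10 genes (vertical axes, each starting at 0) in the 3 AdGFP and 3 AdCre samples; bars are group means, symbols give the replicate number and grey lines join samples of the same number. Every line slopes down, and the sample AdCre 2 is the highest of the AdCre samples in all 10 panels.

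The libraries were of similar depth. The reads worked back from the table came to between 25.3 and 26.5 M (megareads) in AdGFP and between 26.0 and 32.4 M in AdCre, and the 10 genes held between 208 reads (Tcap) and 90615 reads (Ankrd1) in any sample. The cultures expressed cardiomyocyte genes at high levels beside genes of other heart cells: Myh6, the adult cardiac myosin heavy chain, stood at 758 ± 82.1 FPKM in AdGFP and 547 ± 178 in AdCre (SD, n = 3 each, as in all values here), and the cardiac troponin T gene Tnnt2 at 455 ± 109 and 276 ± 57.8. The fibroblast collagen genes Col1a1 and Col1a2 stood at 1970 ± 489 and 685 ± 257 FPKM in AdGFP and at 1647 ± 226 and 493 ± 93.7 FPKM in AdCre. The 10 cardiomyocyte markers, which include Myh6 and Tnnt2 but none of the Z-disc and stress genes, were all lower in AdCre by their means (median -0.65 on the log2 scale), with summed FPKM of 2279 to 3495 in AdGFP and 1369 to 2299 in AdCre, and 6 of the 10 passed in the lower direction with the replicate block (3.51% of tested genes did) and 0 of the 10 without it. Because the markers and the 10 genes were lower in the same group, the level of each gene was also taken relative to the markers of its sample.

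Actn2 encodes the sarcomeric α-actinin that forms the core of the Z-disc, and the gene lies at chr13:12269426-12340760 (ENSMUSG00000052374, GRCm38, minus strand). Its level was 277.7, 297.3 and 231.3 FPKM in AdGFP 1 to 3 and 113.1, 181.2 and 104.3 FPKM in AdCre 1 to 3. Every AdCre sample was below every AdGFP sample. The mean went from 269 ± 33.9 to 133 ± 42.1 FPKM, a difference of -1.05 ± 0.23 (SE) on the log2 scale with an adjusted p of 0.246 (limma, 0.149 to 0.742 over the alternatives without a block). With the replicate block the adjusted p was 0.0181, and 0.000542 to 0.0966 over the blocked alternatives.

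Myoz2, which encodes calsarcin-1, a Z-disc protein that ties calcineurin to α-actinin, had the lowest AdCre mean as a share of the AdGFP mean among the 10. It lies at chr3:123006206-123035015 (ENSMUSG00000028116, minus strand). AdGFP 1 to 3 had 58.84, 41.49 and 27.18 FPKM, and AdCre 1 to 3 had 12.5, 20.72 and 10.01 FPKM. The groups did not overlap, although the AdGFP samples themselves spread widely, and AdGFP 1 was the highest of them. The means were 42.5 ± 15.9 and 14.4 ± 5.61 FPKM, a log2 difference of -1.55 ± 0.35 (SE), with an adjusted p of 0.252 without and 0.0269 with the replicate block (limma, 0.166 to 0.734 and 0.00102 to 0.119 over the respective alternatives). Within samples, the ratio of Myoz2 to Actn2 was 0.212, 0.140 and 0.117 in AdGFP and 0.110, 0.114 and 0.0959 in AdCre, lower in AdCre without overlap but with AdGFP 3 close to AdCre 2.

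Ldb3 encodes Cypher (ZASP), a PDZ and LIM protein that binds α-actinin, at chr14:34526603-34588682 (ENSMUSG00000021798, minus strand). It stood at 84.08, 84.11 and 61.19 FPKM in AdGFP 1 to 3 and at 49.58, 62.78 and 37.88 FPKM in AdCre 1 to 3. The groups overlapped through one pair only, with AdCre 2 slightly above AdGFP 3. The means of 76.5 ± 13.2 and 50.1 ± 12.5 FPKM differed by -0.62 ± 0.22 on the log2 scale (limma adjusted p = 0.416, and 0.0269 with the replicate block). Over the alternatives the adjusted p was 0.276 to 0.932 without the block and 0.00303 to 0.127 with it.

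Tcap encodes telethonin, which caps the ends of titin molecules at the Z-disc, and lies at chr11:98383811-98384953 (ENSMUSG00000007877, plus strand). Its level was 12.42, 27.99 and 22.21 FPKM in AdGFP and 6.85, 12.38 and 12.18 FPKM in AdCre. The groups were apart by a narrow margin, between AdGFP 1 and AdCre 2, and overlapped once the values were rescaled to TPM or freed of the scaling factors in the table. This was the one member whose lowest AdGFP and lowest AdCre samples were both those numbered 1. The mean fell from 20.9 ± 7.87 to 10.5 ± 3.14 FPKM with the replicate block (log2 difference -0.96, SE 0.10, limma adjusted p = 0.0144, 0.00339 to 0.0798 over the blocked alternatives), while the adjusted p was 0.426 without it (0.270 to 0.943).

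Csrp3 encodes the muscle LIM protein, a Z-disc and nuclear protein whose loss leads to dilated cardiomyopathy in mice, at chr7:48830398-48848033 (ENSMUSG00000030470, minus strand). AdGFP 1 had 150.0 FPKM, far above the 46.41 and 36.44 FPKM of AdGFP 2 and 3, and AdCre 1 to 3 had 40.45, 42.17 and 24.61 FPKM. AdCre 1 and 2 lay between the other two AdGFP samples, and AdCre 3 lay below all of them. The log2 difference was -0.86 ± 0.52 (SE), and -0.24 without AdGFP 1, so its size rests on that library. Csrp3 did not pass in either fit (limma adjusted p = 0.169 blocked and 0.657 unblocked, with ranges of 0.0551 to 0.346 and 0.472 to 0.972 over the alternatives).

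Nebl and Lmod2 act along the thin filament. Nebl encodes nebulette, the cardiac relative of nebulin that reaches from the Z-disc into the thin filament, and the same locus also makes a shorter LIM-domain protein of other tissues that a value per gene does not separate. The gene lies at chr2:17343909-17731464 (ENSMUSG00000053702, minus strand). It stood at 12.97, 17.42 and 15.89 FPKM in AdGFP and at 10.21, 12.25 and 10.02 FPKM in AdCre. The groups did not overlap as deposited but did under TPM and without the scaling factors, where the blocked call was lost too. The difference was -0.50 ± 0.15 (SE), and its limma adjusted p was 0.344 unblocked and 0.0405 blocked (0.277 to 0.885 and 0.0116 to 0.164 over the alternatives).

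Lmod2 encodes leiomodin-2, which adds actin at the pointed ends and so lengthens thin filaments, at chr6:24597762-24605414 (ENSMUSG00000029683, plus strand). AdGFP 1 to 3 had 103.3, 130.8 and 88.96 FPKM and AdCre 1 to 3 had 50.67, 84.09 and 43.02 FPKM. Every AdCre sample was below every AdGFP sample, AdCre 2 being close to AdGFP 3. The log2 difference was -0.90 ± 0.27 (SE), and the limma adjusted p was 0.341 unblocked and 0.0169 blocked (0.165 to 0.874 and 0.000808 to 0.0908 over the alternatives).

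Xirp1 and Xirp2 encode the Xin-repeat proteins, which bind actin at the intercalated disc, where cardiomyocytes join end to end. Xirp1 (chr9:120013755-120023598, ENSMUSG00000079243, minus strand) stood at 46.07, 30.13 and 19.95 FPKM in AdGFP and at 20.59, 23.06 and 11.68 FPKM in AdCre. Only AdCre 3 was below all AdGFP samples. The log2 difference was -0.77 ± 0.36 (SE), -0.47 without AdGFP 1 and also -0.47 without AdCre 3, and the limma adjusted p was 0.541 unblocked and 0.0448 blocked (0.403 to 0.971 and 0.00579 to 0.169 over the alternatives).

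Xirp2 (chr2:67446002-67526614, ENSMUSG00000027022, plus strand) was the lowest of the 10 genes per length and had the largest SE of the log2 difference. Its values were 12.29, 7.492 and 3.529 FPKM in AdGFP and 1.778, 5.993 and 1.118 FPKM in AdCre, so that AdCre 2 lay above AdGFP 3. The ratio of Xirp1 to Xirp2 was 3.75, 4.02 and 5.65 in AdGFP and 11.6, 3.85 and 10.4 in AdCre, with overlap through AdCre 2. The within-number differences of Xirp2 ran from -0.32 for replicate 2 to -2.72 for replicate 1 on the log2 scale. The mean difference of -1.54 ± 0.66 (SE) was close to the -1.55 of Myoz2, and their order changed between alternatives, with an adjusted p of 0.505 without and 0.0909 with the replicate block (limma, 0.227 to 0.963 and 0.0227 to 0.262 over the alternatives). Antisense exons cover 1.40% of its exon bases, and the use of strand in counting is not given in the sources used here.

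Ankrd1 encodes the cardiac ankyrin repeat protein, which binds titin in the sarcomere and also enters the nucleus, and it was by far the highest of the 10 genes. It lies at chr19:36111961-36120099 (ENSMUSG00000024803, minus strand). Its level was 1030, 1238 and 873.4 FPKM in AdGFP 1 to 3 and 635.2, 919.8 and 546.2 FPKM in AdCre 1 to 3. AdCre 1 and 3 lay below all AdGFP samples, while AdCre 2 was above AdGFP 3. The means were 1047 ± 183 and 700.4 ± 195 FPKM, a log2 difference of -0.60 ± 0.25 (SE) and a limma adjusted p of 0.491 unblocked and 0.0313 blocked (0.306 to 0.986 and 0.00304 to 0.195 over the alternatives).

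**Figure D2:**
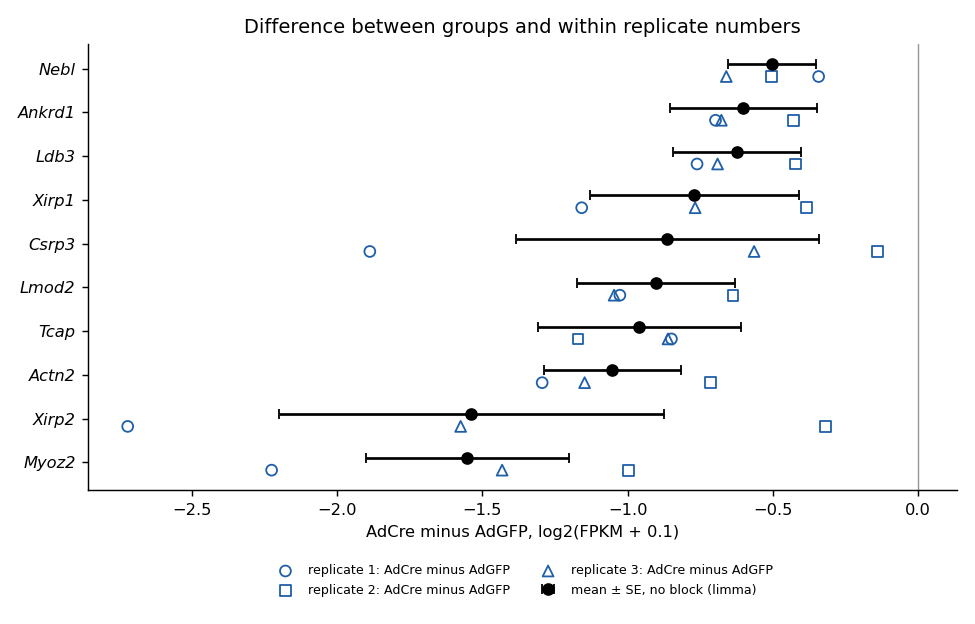
AdCre minus AdGFP on the log2(FPKM + 0.1) scale (horizontal axis) for each gene; black points are mean differences with their SE from limma without a block, and open symbols the difference within each replicate number. All symbols lie left of 0, from -0.14 (Csrp3, replicate 2) to -2.72 (Xirp2, replicate 1), and replicate 2 has the smallest difference for 8 of the 10 genes.

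The 10 genes kept much of their order of level per length between the groups. In AdGFP the order of the mean FPKM was Ankrd1, Actn2, Lmod2, Csrp3, Ldb3, Myoz2, Xirp1, Tcap, Nebl and Xirp2. In AdCre, Ldb3 stood ahead of Csrp3, Xirp1 ahead of Myoz2 and Nebl ahead of Tcap, and in each of these pairs the values of the genes overlapped in at least one group. Ankrd1 made up 57.6 to 64.4% of the summed FPKM of the 10 genes in AdGFP and 67.4 to 68.2% in AdCre. Its ratio to Actn2 was 3.71, 4.16 and 3.78 in AdGFP and 5.61, 5.08 and 5.24 in AdCre, with the AdCre samples all above the AdGFP ones. The summed level of the 10 went from 0.497 to 0.641% of all FPKM in AdGFP to 0.297 to 0.480% in AdCre.

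Single samples had much in common across the genes. AdCre 3 had the lowest value of all 6 samples for 9 of the 10 genes (AdCre 1 for Tcap), and AdCre 2 the highest AdCre value for all 10. The highest sample was AdGFP 1 for Csrp3, Myoz2, Xirp1 and Xirp2 and AdGFP 2 for the other 6 genes. Replicate 1 gave the largest within-number difference for 7 of the 10 genes. The mean log2 level of the 10 was 6.08, 5.96 and 5.47 in AdGFP 1 to 3 and 4.79, 5.39 and 4.52 in AdCre 1 to 3.

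The level of the 10 cardiomyocyte markers moved in the same samples. Their mean log2 level was 7.65, 7.52 and 6.97 in AdGFP and 6.86, 7.04 and 6.20 in AdCre, a difference of -0.68 between the groups where that of the 10 Z-disc and stress genes was -0.94. Subtracting the markers of the same sample left the 10 genes at -1.56, -1.56 and -1.50 in AdGFP and at -2.08, -1.65 and -1.68 in AdCre. The remaining difference of -0.26 was larger than the pooled within-group SD of 0.171, without overlap of the groups, and was -0.12 without AdCre 1. The markers themselves differed by -1.31 (Pln) to -0.16 (Tnnc1), so the size of this remainder depends on the markers chosen. Taken relative to their own mean, they ran from -0.62 (Pln) to 0.53 (Tnnc1). Relative to the markers, 7 of the 10 genes were lower in AdCre by their means, and Nebl (0.18), Ankrd1 (0.08) and Ldb3 (0.06) were higher. Because the markers themselves were lower in AdCre, this scale raises every gene in AdCre by the same amount. On it, Myoz2 (-0.87) was the only one of the 10 whose groups did not overlap, in the lower direction, as held for 0.348% of tested genes, while 0 of the 10 lay higher without overlap, as held for 28.2%. Xirp2 was lower by a like amount (-0.86) with overlap, and Actn2 by -0.37.

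**Figure D3:**
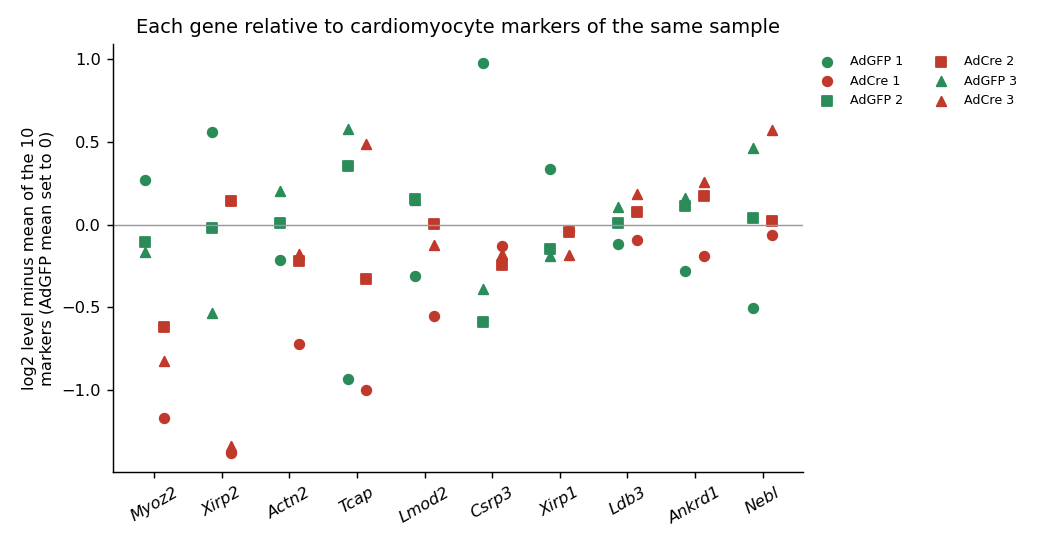
Level of each gene minus the mean of the 10 cardiomyocyte markers in the same sample (log2 scale, vertical axis, AdGFP mean set to 0) for the 3 AdGFP (green) and 3 AdCre (red) samples. Myoz2 is the only gene with all red points below all green ones, while Nebl, Ankrd1 and Ldb3 lie slightly above 0 on average.

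The sequence before the transcription start was read for the members that have an entry in the RefSeq promoter table (GRCm38.p6), since these genes were lower together. A promoter was found for 8 of the 10, and Tcap and Xirp1 were not matched. Where a gene had several starts (2 for Csrp3 and Ldb3, 4 for Nebl), the start nearest to the GENCODE 5' end was read. The starts of Ankrd1 and Nebl lay 255 and 330 bases from that end, so their 250 bases lie inside the annotated gene. The shares over all promoters given below count every start, not 1 per gene. The 250 bases before the start are shown for the 4 genes that held a motif of the muscle and cardiac factors TEAD, GATA, SRF or MEF2, in the sense of the gene, with the match in capitals: the MCAT letters CATTCC and the GATA letters AGATAA or TGATAA as read on either strand, the CArG box and the MEF2 box. Ankrd1 is at chr19:36119845-36120094 (minus strand), Ldb3 at chr14:34588682-34588931 (minus strand), Myoz2 at chr3:123034988-123035237 (minus strand) and Xirp2 at chr2:67445752-67446001 (plus strand).
Ankrd1: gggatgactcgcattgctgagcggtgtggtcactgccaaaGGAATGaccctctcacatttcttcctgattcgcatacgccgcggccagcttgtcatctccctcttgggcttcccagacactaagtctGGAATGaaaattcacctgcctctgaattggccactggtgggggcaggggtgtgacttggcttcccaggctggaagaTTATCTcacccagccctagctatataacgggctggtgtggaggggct
Ldb3: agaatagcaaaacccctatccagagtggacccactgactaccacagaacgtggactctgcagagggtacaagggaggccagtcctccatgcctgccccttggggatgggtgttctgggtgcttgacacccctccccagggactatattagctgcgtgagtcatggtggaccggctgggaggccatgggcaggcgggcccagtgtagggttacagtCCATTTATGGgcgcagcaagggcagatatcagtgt
Myoz2: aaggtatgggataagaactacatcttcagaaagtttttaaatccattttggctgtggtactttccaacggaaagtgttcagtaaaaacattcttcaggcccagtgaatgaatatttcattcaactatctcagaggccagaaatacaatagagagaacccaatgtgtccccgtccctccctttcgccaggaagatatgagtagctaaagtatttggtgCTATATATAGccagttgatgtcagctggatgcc
Xirp2: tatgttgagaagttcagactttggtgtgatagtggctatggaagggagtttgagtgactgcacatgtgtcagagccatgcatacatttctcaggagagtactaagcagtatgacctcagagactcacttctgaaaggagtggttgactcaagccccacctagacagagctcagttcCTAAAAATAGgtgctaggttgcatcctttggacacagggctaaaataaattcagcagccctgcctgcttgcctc
Ankrd1 held MCAT in a pair of places, from -210 to -205 and from -123 to -118 relative to the start, and a GATA match from -47 to -42, all on the reverse strand. MCAT letters occur in 12.6% and the GATA letters in 16.6% of the 32851 promoters of the same length, and in 1 of the 8 here in each case. Ldb3 alone held a CArG box, the site of serum response factor, from -35 to -26 (1.47% of all promoters). The MEF2 box, found in 2.92% of promoters, stood from -33 to -24 in Myoz2 and from -74 to -65 in Xirp2. E-box letters (CANNTG) were in 7 of 8, all but Ldb3, and in 66.2% of all promoters, and TATAAA was in 0 of 8 and 12.4% of all. These matches describe letters only and say nothing of binding in these cells, and a link to the group differences was not tested.

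Genes that work with the 10 were taken from wider lists of 55 symbols, of which 50 were tested. With the replicate block, 10 of the 50 fell, against 3.51% of tested genes, and 0 rose, against 2.64%. Without the block 0 passed (limma), and 8 were lower at an unadjusted p under 0.05, against 5.45% of tested genes. That count of 8 became 4 without AdGFP 2 (2.68% of tested genes) or AdCre 3 (3.41%), 5 without AdGFP 1 (6.18%), 12 without AdCre 2 (6.83%) and 13 without AdGFP 3 (6%). All 10 blocked calls were lost without the samples numbered 3, without the intensity trend or without the filter on low genes. Their median difference was -0.10 on the log2 scale, with 31 lower and 19 higher by their means, so most of the lists moved less than the 10 genes themselves. The groups did not overlap for 7 that were lower and for 2 that were higher, against 8.02% and 7.36% of tested genes. These counts were 11 and 9 without AdGFP 1 (16.3% and 15.8%), 16 and 6 without AdGFP 3 (14.9% and 13%), and 15 and 4 without AdCre 2 (15% and 13.8%). Leaving out any other single sample gave 7 or 8 and 2 or 3 (9.98 to 11.6% and 9.2 to 11.7%).

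Among 21 tested partners at the Z-disc and intercalated disc the median was -0.27, with 17 lower and 4 higher. With the block 5 fell, against 3.51% of all tested genes. Smpx, a small muscle protein that answers to stretch, went from 120 ± 40.9 to 49.2 ± 21.1 FPKM (adjusted p = 0.0252 with the replicate block, limma). Nrap, an actin-anchoring protein of myofibril assembly, went from 48.4 ± 19 to 27.7 ± 9.46 FPKM (adjusted p = 0.0364), and Cmya5, a large α-actinin-binding protein, from 4.15 ± 1.74 to 2.05 ± 0.847 FPKM (adjusted p = 0.0426). The others were the formin gene Fhod3, at 47.4 ± 8.11 and 32.1 ± 8.29 FPKM (adjusted p = 0.0277), and the Z-disc gene Synpo2l, at 23.9 ± 9.69 and 15.6 ± 5.65 FPKM (adjusted p = 0.0227).

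Of 19 tested titin-linked and mechanical stress genes, 4 fell with the block, against 3.51% of all tested genes. Their median was 0.01 with 9 lower and 10 higher. Fhl2, a LIM protein that binds titin, went from 231 ± 26.8 to 123 ± 20.7 FPKM (adjusted p = 0.0103 with the replicate block, limma). The muscle RING-finger ubiquitin ligases of the M-band and Z-disc region went the same way, Trim55 from 39.7 ± 6.04 to 22.7 ± 4.31 FPKM (adjusted p = 0.0119) and Trim63 from 33.2 ± 8.2 to 20.9 ± 6.52 FPKM (adjusted p = 0.0169). Myocd, a coactivator of serum response factor, went from 21.5 ± 2.15 to 14.9 ± 3.41 FPKM (adjusted p = 0.043). Of 10 focal adhesion genes, 1 fell with the block, against 3.51% of all tested genes, and the list median was -0.01. That gene was Zyx, which encodes the adhesion protein zyxin (65.1 ± 6.78 to 49.8 ± 4.72 FPKM, adjusted p = 0.0427). Over the blocked alternatives these 10 adjusted p-values ran from 0.000397 to 0.173. Without the block they ran from 0.191 (Fhl2) to 0.676 (Synpo2l, limma). The groups overlapped for Synpo2l, Nrap, Cmya5 and Trim63.

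Relatives of the 10 genes were measured too, some of them used in other muscles or in non-muscle cells and some, such as Tmod1 and Pdlim5, in cardiomyocytes. All of them but Actn1, Actn3, Actn4, Csrp1 and Csrp2 are also in the wider lists above, so they are not a separate set. Of 17 such paralogs 14 were tested, of which 10 were lower and 4 higher by their means with a median of -0.13, and 0 passed with or without the block (limma). Over the blocked alternatives the lowest adjusted p was 0.0294 for Tmod1 and 0.0415 for Pdlim5 (limma), and above 0.05 for every other paralog. The non-muscle α-actinins Actn1 and Actn4 stood at 118 ± 22.4 and 150 ± 23.5 FPKM in AdGFP and at 128 ± 19 and 152 ± 4.68 FPKM in AdCre. The level of Actn2 per length was therefore 1.97, 3.09 and 1.99 times that of Actn1 in AdGFP 1 to 3 and 0.798, 1.70 and 0.765 times in AdCre 1 to 3, without overlap. Csrp1, the smooth muscle relative of Csrp3, was at 231 ± 105 and 219 ± 36.3 FPKM, and Csrp2 at 32.9 ± 1.75 and 26.8 ± 2.83 FPKM. The ratio of Csrp3 to Csrp1 was 0.426, 0.283 and 0.205 in AdGFP and 0.159, 0.233 and 0.110 in AdCre, with overlap. The leiomodin Lmod3 was at 9.29 ± 2.49 and 7.65 ± 3.1 FPKM, so that Lmod2 was 10.8, 11.3 and 13.3 times Lmod3 in AdGFP and 7.06, 7.67 and 8.92 times in AdCre, without overlap. Myoz1, the calsarcin of fast skeletal muscle, was near the filter at 0.602 ± 0.241 and 0.909 ± 0.244 FPKM, and the skeletal Ankrd2, Myoz3 and Neb were below it. Ankrd23, another stress-responsive ankyrin repeat gene, was at 1.55 ± 0.595 and 0.992 ± 0.87 FPKM. Tmod1, the tropomodulin that caps the thin filament ends on which Lmod2 acts, was at 30.4 ± 7.9 and 22.6 ± 4.45 FPKM, and the ratio of Lmod2 to it, 2.71, 4.26 and 3.98 in AdGFP and 2.00, 3.36 and 2.46 in AdCre, overlapped between the groups. Of the PDZ and LIM relatives of Ldb3, Pdlim5 was the highest, at 89.4 ± 11.7 and 64.6 ± 13.3 FPKM, while Pdlim1, Pdlim3 and Pdlim7 differed by 0.10, -0.25 and -0.21 on the log2 scale. Actn3 and Lmod1 stood at 1.63 ± 1.1 and 8.37 ± 1.14 FPKM in AdGFP and at 1.46 ± 0.505 and 8.1 ± 0.892 FPKM in AdCre.

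**Figure D4:**
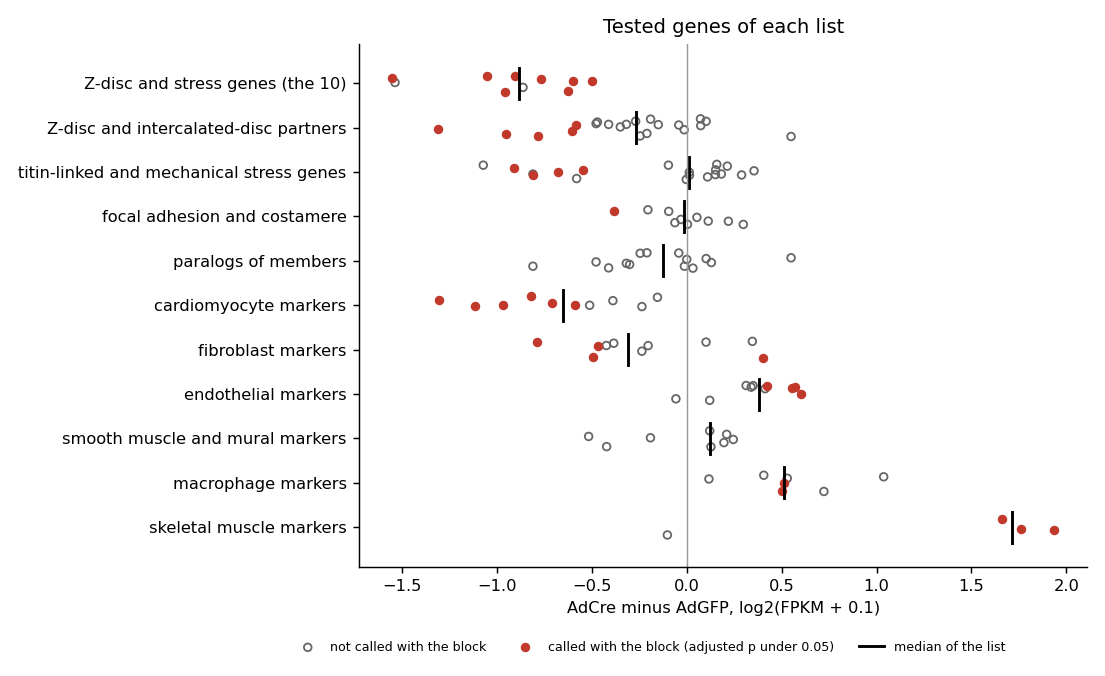
AdCre minus AdGFP on the log2(FPKM + 0.1) scale (horizontal axis) for each tested gene of the 10, of the wider lists, of the paralogs and of the cell type markers; filled points passed with the replicate block and black bars are list medians. The 10 Z-disc and stress genes have a median of -0.88, the cardiomyocyte markers -0.65 and the paralogs -0.13. Most paralogs are also in the wider lists and are drawn in both.

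Markers of other cells were measured beside these results, and their part in them was not tested beyond the subtraction above. Without the replicate block 0 markers of any of these cell types passed (limma), and with it 3.51% of tested genes fell and 2.64% rose. Of 10 fibroblast markers 3 fell and 1 rose with the block (median -0.31, summed FPKM 2685 to 4747 in AdGFP and 2405 to 3453 in AdCre). Of 10 endothelial markers 4 rose and 0 fell (median 0.38, 95.0 to 147 and 139 to 206 FPKM), with the endothelial surface gene Eng at 55.8 ± 11.3 and 81.9 ± 16.8 FPKM and the cadherin gene Cdh5 at 18.8 ± 5.67 and 25.5 ± 8.81 FPKM. Of 7 tested macrophage markers 2 rose, Lyz2 and C1qb but not Cd68 (median 0.51, 49.3 to 268 and 87.8 to 337 FPKM). Of 8 smooth muscle markers 0 passed (median 0.12, 822 to 1276 and 975 to 1181 FPKM). The macrophage lysozyme gene Lyz2 was at 124 ± 82.8 and 165 ± 98.3 FPKM and Cd68 at 15.2 ± 8.4 and 22.8 ± 7.73 FPKM, while the smooth muscle actin gene Acta2 was at 881 ± 229 and 941 ± 122 FPKM and the mural receptor gene Pdgfrb at 62.7 ± 14.2 and 72.2 ± 15 FPKM. Among 4 tested skeletal muscle markers 3 rose with the block, including Tnnt3, the fast skeletal troponin T gene, from 6.42 ± 1.18 to 22.2 ± 5.26 FPKM (limma adjusted p = 0.0051, 0.102 without the block), and Acta1, the skeletal α-actin gene that neonatal heart also uses, at 263, 37.5 and 16.6 FPKM in AdGFP 1 to 3 and 470, 222 and 88.2 FPKM in AdCre 1 to 3 (adjusted p = 0.0346, 0.610 without the block). Over the blocked alternatives the adjusted p was 0.000147 to 0.0674 for Tnnt3 and 0.000555 to 0.150 for Acta1. The defining skeletal genes Myod1, Myog, Pax7 and Myh4 were at or near 0.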

How the data were processed

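RNA of 3 AdGFP and 3 AdCre cultures was measured. The deposited values are FPKM per gene and sample, made by the authors with rescaled library sizes and not pooled. Per the submitters' processing notes, fastp, STAR 2.5, HTSeq 0.6.1 and mm10 were used, and the annotation and strand setting are not given in the sources used here. Symbols and coordinates came from GENCODE M21 (54495 of 54532 IDs matched). Whole reads were recovered from FPKM times exon length for 96.3 to 96.4% of values within 0.02 of a whole number.

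Values were fitted as log2(FPKM + 0.1) with limma 3.58.1 in R 4.3.3 (group term, eBayes with trend) over the 13794 genes averaging 0.5 FPKM or more. A gene is called at a Benjamini-Hochberg adjusted p under 0.05, and fold changes of low genes are understated on this scale. An exact permutation test of 3 against 3 cannot go below p = 0.1. P-values measure the spread between these samples, which may in part be technical.

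Same-numbered samples deviated together from the group means (r = 0.568, 0.268 and 0.506, and -0.497 to 0.0364 for other combinations), so same-numbered samples were treated as pairs, from the values alone, and the replicate block is printed where it changes a call. The scripts were tested on simulated data.

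The members and lists were chosen with earlier results of these data known. Named were all 10 members, at most 5 genes with the smallest p of each wider list among those called with the block, every paralog, and the 2 markers of each cell type with the highest mean FPKM. The ratios of one gene to another were chosen after their values were seen. Figures were drawn with matplotlib 3.10.9 under Python 3.11.15, and promoters came from RefSeq.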

Additional observations from a re-analysis of the deposited data

How the results depend on the processing

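All 10 genes were lower in AdCre in each of 28 settings (280 of 280 combinations of gene and setting), and the median difference stayed between -1.05 and -0.66 when single samples were left out. Without a block, 0 of the 10 passed in every alternative. With the replicate block, 8 passed, against 0 without. Blocked alternatives, all but the plain block chosen after the data were seen, gave 9 with voom on recovered reads, 8 with a pseudocount of 1 or 0.01, with a mean of at least 1 FPKM, with median centring and without pair 1, 7 under TPM and without the scaling factors (Nebl lost), and 3 without pair 2. The share of all tested genes called lower moved too, from 3.51% with the plain block to 5.22% with voom, 4.44% at a mean of 1 FPKM, 2.44% under TPM, 2.86% without the scaling factors and 0.718% without pair 2, and stood between 3.04 and 3.25% in the other alternatives that gave 8. They gave 0 without the filter, without the trend and without pair 3, and the cause was not tested. Over all genes the block called 848, but 1706 with voom (720 lower), 17 without the filter, 0 without the trend and 1 without pair 3. The wider lists gave 0 called genes without the block and 10 with it, and under the same blocked alternatives 17 with voom (13 lower), 10 with either pseudocount, with centring and without pair 1 (9 lower in the last), 12 with a mean of at least 1 FPKM, 7 under TPM, 8 without the scaling factors, 4 without pair 2, and 0 without the filter, without the trend and without pair 3. Members without overlap of the groups numbered 5 as deposited (8.02% of tested genes), 3 (Myoz2, Actn2 and Lmod2) under TPM (4.04%) and without the scaling factors (5.51%), and 5 to 10 when single samples were left out. They were 10 without AdGFP 3 (14.9%), 8 without AdCre 2 (15.0%), and 5 without AdGFP 1 (16.3%), AdGFP 2 (9.98%), AdCre 1 (11.6%) or AdCre 3 (10.8%). Leaving out AdGFP 1 moved Csrp3 from -0.86 to -0.24 on the log2 scale and Xirp1 from -0.77 to -0.47. The fewest reads of any of the 10 genes in a sample were 208.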
